A study of Mus musculus with 6 samples.

Results

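The immune cells of 6 murine rhabdoid tumors were compared between extracranial MYC tumors (eRT) and MYC tumors of the spinal canal (MYC spinal). The cells were selected on their own measured transcripts: of the 22163 cells with 200 or more genes and no more than 25% mitochondrial UMIs, 17212 had a UMI of at least 2 of the 5 genes *Ptprc*, *Tyrobp*, *Fcer1g*, *Laptm5* and *Coro1a*, and fewer than 2 of the 4 genes *Meg3*, *Serpinh1*, *Col1a2* and *Prrx1*. Of these, 6887 came from eRT and 10325 from MYC spinal tumors. A UMI (unique molecular identifier) counts 1 captured transcript molecule, and levels are given in CPM, the share of a gene in the UMIs of the cells named, scaled so that all genes sum to 1000000.

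Rhabdoid tumors are aggressive childhood cancers that lack the chromatin remodelling subunit *SMARCB1*, and the study asked which cells its mouse models of them grow from. Each tumor was dissociated, depleted of red cells, sorted for live cells and profiled as 1 single-cell library. All 6 mice carried floxed *Smarcb1* alleles (*Smarcb1* fl/fl) on a C57BL/6 background with a tamoxifen-inducible Cre, and Cre was activated in utero with 50 mg/kg tamoxifen at day 6.5 after conception. The MYC spinal tumors came from mice of 19 weeks (MYC spinal 1), 26 weeks (MYC spinal 2) and 17 weeks (MYC spinal 3), all Rosa26-cre, in which the ubiquitous *Rosa26* locus drives Cre. The eRT came from the gland of a 17-week-old Rosa26-cre mouse (eRT 1), the jaw of a 29-week-old Sox2-cre mouse (eRT 2) and the shoulder of a 22-week-old Sox2-cre mouse (eRT 3), Sox2-cre being active in *Sox2*-positive progenitor cells. Subtype, site and, for 2 of the 3 eRT, Cre line cannot be told apart, and no tumor-free tissue was compared. The targeted gene *Smarcb1* was detected in the immune cells of all 6 tumors, from 24.0 CPM (MYC spinal 2) to 59.8 CPM (eRT 1). The unselected cells ranged from 0 CPM (eRT 1, where 3 UMIs would give 9.89 CPM) to 38.1 CPM, the latter in MYC spinal 2, the 1 tumor whose unselected cells exceeded its immune cells.

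Tumor-resident myeloid cells belong to a few families with distinct tasks. Monocytes arrive from the blood and mature into macrophages, which clear debris, make complement and release chemokines that draw in further cells. Neutrophils are short-lived granule-bearing cells made from granulocyte-monocyte progenitors of the bone marrow, whereas osteoclasts are bone-resorbing cells of the same myeloid stock. T and natural killer cells are the main cytotoxic lymphocytes.

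The cells at the edge of the selection were those with 1 or 2 of the immune genes. Between 79 (eRT 1) and 1546 (MYC spinal 2) selected cells per tumor had exactly 2 of the 5 genes, and 36 to 886 cells per tumor with exactly 1 stayed outside. Cells with at least 2 immune genes that were removed for carrying at least 2 matrix genes numbered 504 in MYC spinal 3, 131 in eRT 3 and 3 to 22 in the other tumors. These figures only describe how the cells were chosen.

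Depth differed between the tumors. The median selected cell held 970 UMIs in MYC spinal 2, 1384 in eRT 2, 2040 in MYC spinal 1, 2131 in eRT 3, 2900 in MYC spinal 3 and 5211 in eRT 1. MYC spinal 2 also stood apart outside the selection: its unselected cells carried 36482 CPM of 6 neutrophil markers and only 137 CPM of the 4 matrix genes, against 3017 to 8103 CPM of the matrix genes in the unselected cells of the other 5 tumors. Whether these were neutrophils below the selection or other cells with free neutrophil RNA was not tested, and the immune share of this tumor carries that uncertainty. In the selected cells, the summed fibroblast markers (*Col1a1*, *Col3a1*, *Dcn* and 3 others) lay between 3.1 and 34.8 CPM in all 6 tumors. Neural and glial markers were at 513 CPM in MYC spinal 1 and 18.1 to 33.0 CPM in the other 5, and erythroid markers at 6806 CPM in eRT 2 and 208 CPM or less elsewhere.

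Immune cells made up 71.3% to 81.4% of the kept cells in the MYC spinal tumors and 77.4% to 96.4% in eRT. The shares were 81.4% in MYC spinal 1, 75.2% in MYC spinal 2 and 71.3% in MYC spinal 3, and 96.4% in eRT 1, 77.4% in eRT 2 and 80.6% in eRT 3. The means were 76.0% ± 5.12 (SD, n = 3) and 84.8% ± 10.1 (SD, n = 3), and the groups overlapped. The difference of 8.83 percentage points gave p = 0.3 in a two-sided exact permutation test over the 6 tumors, for which the smallest possible p is 0.1. Thinning every cell to 500 UMIs before the selection, which left out 725 shallower cells of MYC spinal 2, gave shares of 42.7%, 53.5% and 43.1% in MYC spinal and 66.0%, 52.9% and 69.3% in eRT, in the same order. Requiring at least 3 of the 5 immune genes gave a difference of 19.4 points.

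Each immune cell was then given the lineage of which it had the most of 6 markers, with at least 2 detected. Cells with a tie made up 3.1% to 18.0% and cells with too few markers 1.0% to 18.0% of the immune cells per tumor, and both stayed unnamed. The leading lineage differed from tumor to tumor within each subtype. MYC spinal 1 was led by T cells, MYC spinal 2 by neutrophils, MYC spinal 3 by osteoclast-marker cells, eRT 1 and 3 by macrophages, and eRT 2 had neutrophils, monocytes and T cells in similar shares. None of the 12 lineages separated the subtypes, and the adjusted p (Benjamini-Hochberg over the 12 exact permutation tests) was 1 for each.

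**Figure D1:**
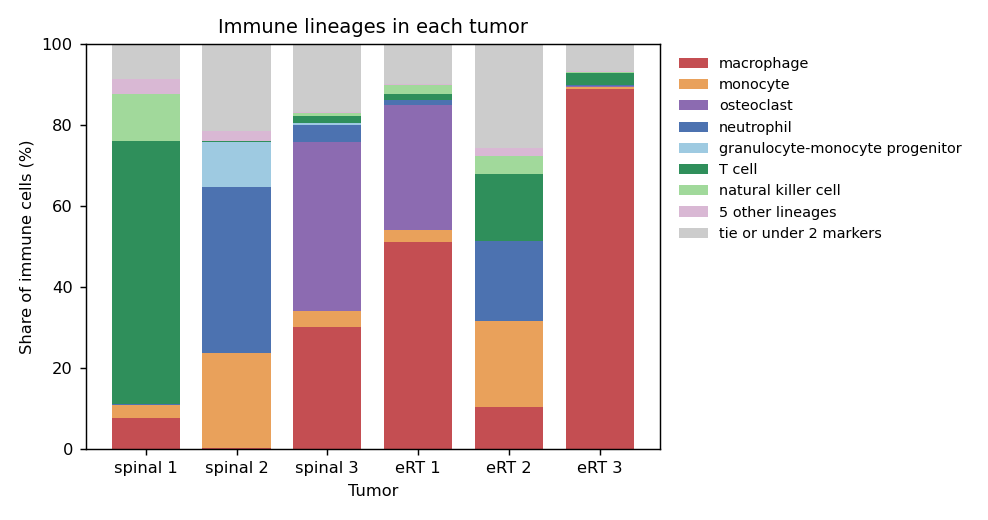
Stacked bars give the share of immune cells (y axis, percent) in each lineage for each of the 6 tumors (x axis). MYC spinal 3 and eRT 1 share a large osteoclast-marker block of 41.7% and 31.1%, and MYC spinal 1 is the tumor with 65.1% T cells.

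Macrophage-marker cells (*C1qa*, *C1qb*, *C1qc*, *Mrc1*, *Adgre1*, *Ms4a7*) were the lineage with the largest difference between the means. They made up 7.53% of the immune cells in MYC spinal 1, 0.231% in MYC spinal 2 and 30.2% in MYC spinal 3, and 51.2% in eRT 1, 10.4% in eRT 2 and 88.8% in eRT 3. The means were 12.6% ± 15.6 and 50.1% ± 39.2 (SD, n = 3 each), and eRT 2 lay below MYC spinal 3. The difference of 37.5 percentage points had an exact permutation p of 0.2, and it was 18.2 without eRT 3 and 57.3 without eRT 2. *C1qa*, a subunit of the first complement component, was at 2015 CPM in MYC spinal 1, 5.9 CPM in MYC spinal 2 and 951 CPM in MYC spinal 3, and at 2496 CPM in eRT 1, 539 CPM in eRT 2 and 5401 CPM in eRT 3, so the macrophage-poor MYC spinal 1 lay above eRT 2. In these sums, fewer cells of a type and less RNA per cell cannot be told apart.

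Osteoclast-marker cells (*Ctsk*, *Acp5*, *Atp6v0d2*, *Ocstamp*, *Oscar*, *Calcr*) were a large class in 1 tumor of each subtype. They accounted for 41.7% of the immune cells in MYC spinal 3 and 31.1% in eRT 1. In the other 4 tumors 0 of 1196, 0 of 4326, 1 and 8 cells were of this class, at most 0.247%. *Ctsk*, the collagen-degrading cathepsin of osteoclasts, stood at 4252 CPM in MYC spinal 3 and 5087 CPM in eRT 1 against 1.0 to 60.7 CPM elsewhere. Osteoclast transcripts were also counted in other cells of both tumors: the T cells held 415 CPM *Ctsk* in MYC spinal 3 (median 1934 UMIs) and 252 CPM in eRT 1 (median 2195.5 UMIs), whereas those of the 3 other tumors with enough T cells held at most 6.8 CPM. The osteoclast-marker cells, which *Ctsk* helped to choose, held 7344 CPM and 11203 CPM.

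Within the osteoclast-marker cells the 2 tumors can be set side by side, with 1 tumor per subtype and therefore no test. *Acp5*, the tartrate-resistant acid phosphatase of osteoclasts, was at 10076 CPM in MYC spinal 3 and 10469 CPM in eRT 1, and the chemokine gene *Ccl9* at 2810 and 2822 CPM. *Mmp9*, a matrix metalloproteinase, was at 3124 and 2788 CPM. Other genes were further apart: *Arg1*, which encodes arginase, was at 1.8 CPM in MYC spinal 3 and 325 CPM in eRT 1, *Isg15*, an interferon-induced ubiquitin-like protein, at 97.6 and 314 CPM, and *Spp1*, which encodes osteopontin, at 383 and 1345 CPM. Of the osteoclast-marker cells, 8.4% in MYC spinal 3 and 47.2% in eRT 1 also had at least 2 macrophage markers, and no doublet caller was run.

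Neutrophils (*S100a8*, *S100a9*, *Retnlg*, *Csf3r*, *Lcn2*, *Cxcr2*) made up 40.9% of the immune cells in MYC spinal 2 and 19.7% in eRT 2. They were 0.0836% in MYC spinal 1, 4.18% in MYC spinal 3, 1.02% in eRT 1 and 0.0617% in eRT 3. The means were 15.1% ± 22.5 in MYC spinal and 6.94% ± 11.1 in eRT (SD, n = 3 each; exact permutation p = 0.6), and without MYC spinal 2 the difference of -8.12 percentage points became 4.80. Granulocyte-monocyte progenitor-marker cells, which carry the early granule genes *Mpo*, *Elane* and *Prtn3*, were 11.1% of MYC spinal 2 and 0.708% of MYC spinal 3. None was found in MYC spinal 1 or in the 3 eRT, where 0 of 1196 to 0 of 3241 cells allow shares of up to 0.251% to 0.0926%. Monocytes (*Ly6c2*, *Ccr2*, *Plac8* and 3 others) went with the neutrophils, at 23.5% in MYC spinal 2 and 21.1% in eRT 2. The other 4 tumors held 0.679% to 3.85%. The 2 classes were not cleanly apart: 64.5% of the monocytes of MYC spinal 2 and 15.6% of those of eRT 2 had at least 2 neutrophil markers. Of the neutrophils, 51.6% in MYC spinal 2 and 9.29% in eRT 2 had at least 2 monocyte markers.

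T cells (*Cd3d*, *Cd3e*, *Cd3g*, *Cd5*, *Cd6*, *Lat*) reached 65.1% in MYC spinal 1 and 16.5% in eRT 2. The other 4 tumors held 0.162% to 2.99%. *Cd3e*, a signalling chain of the T cell receptor, was at 415 CPM in MYC spinal 1, 104 CPM in eRT 2 and 5.1 to 10.2 CPM elsewhere. Natural killer cells were at 11.6% in MYC spinal 1, 4.49% in eRT 2 and 0.116% to 2.23% elsewhere. Both lymphoid classes were therefore highest in the same tumor of each subtype. Thinned to 500 UMIs, T cells still made up 32.2% of MYC spinal 1 and 5.09% of eRT 2. The remaining 5 lineages (B cells, microglia, dendritic cells, plasmacytoid dendritic cells, and basophils or mast cells) held at most 1.67% of the immune cells of any tumor. T cell markers were also counted in the unselected cells, at 1286, 138 and 24.2 CPM in MYC spinal and 69.2, 930 and 122 CPM in eRT. The selected cells held 3428, 43.4 and 83.5 CPM and 68.9, 684 and 99.2 CPM. B cell markers in MYC spinal 2 were at 925 CPM outside the selection and 168 CPM within. How many lymphoid cells the selection missed was not tested.

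**Figure D2:**
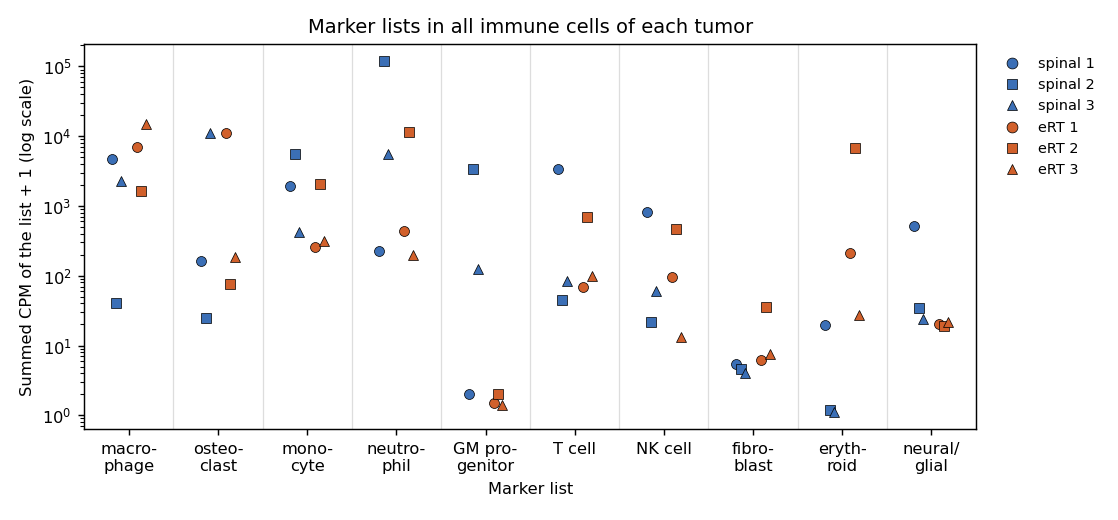
Each point is the summed level of 1 marker list in all immune cells of 1 tumor (y axis, CPM + 1 on a log scale) for 10 lists (x axis), with blue for MYC spinal and orange for eRT. The colors mix in most lists, with the neutrophil list running from 196 CPM in eRT 3 to 117529 CPM in MYC spinal 2.

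Across all genes the tumors likewise did not group by subtype. The Pearson correlation of log2(CPM + 10) over 10668 genes, given as a description since genes are not independent, was 0.781 to 0.916 for the 6 pairs of tumors of 1 subtype and 0.799 to 0.962 for the 9 pairs across subtypes. The pair with the highest value, 0.962, was MYC spinal 3 and eRT 1, the osteoclast-rich tumors.

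UMIs of all immune cells were then summed per tumor and tested with edgeR's quasi-likelihood test over 10668 genes. At a Benjamini-Hochberg adjusted p under 0.05 no gene was called (0%), and the smallest adjusted p was 0.9997. Unadjusted, 205 genes (1.92%) had a p under 0.05, and DESeq2 called 14 genes (0.131%), 12 higher and 2 lower in eRT. In 279 genes (2.62%) every eRT lay above every MYC spinal tumor, and in 286 (2.68%) every eRT lay below. Without TMM normalisation factors these counts were 207 and 374. The median standard error of a log2 fold change was 0.55. The genes below are those whose groups did not overlap and whose unadjusted p was smallest, and they are given as values, since none passed the test.

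The 6 genes of smallest p that lay higher in eRT were *C5ar1*, *Sirpb1c*, *Ccl2*, *Fcgrt*, the predicted gene *Gm6377* and *Cd14*. *C5ar1*, the receptor of the complement fragment C5a, was at 89.8, 87.1 and 78.3 CPM in MYC spinal 1, 2 and 3. Its levels in eRT 1, 2 and 3 were 228, 393 and 348 CPM. The 3 MYC spinal values lay close together and every eRT lay above them, although the adjusted p (edgeR, Benjamini-Hochberg) for the log2 fold change of 1.99 ± 0.42 (SE) was 0.9997. *Cd14*, a co-receptor for bacterial lipopolysaccharide, was at 178, 144 and 181 CPM in the MYC spinal tumors and 343, 2086 and 1529 CPM in the eRT. *Sirpb1c*, a signal-regulatory protein gene with close paralogs whose reads may be shared, was at 23.5, 20.8 and 40.0 CPM against 96.6, 157 and 125 CPM. *Fcgrt*, the neonatal Fc receptor that recycles IgG, was at 35.5, 17.3 and 31.0 CPM against 79.7, 80.5 and 143 CPM, and *Gm6377* at 13.4, 11.8 and 18.8 CPM against 34.2, 132 and 91.2 CPM. For all 5 genes the subtypes did not overlap with or without TMM factors, and *C5ar1*, *Cd14*, *Sirpb1c* and *Gm6377* were among the 12 genes that DESeq2 called higher.

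The summed macrophage list was at 4725, 39.5 and 2308 CPM in MYC spinal and 6880, 1664 and 15019 CPM in eRT. All 6 of its markers were tested, 2 of them lay above in every eRT, against 2.62% of all genes, and the median log2 fold change was 2.11 against -0.07 over all genes. The list and the genes above did not follow the same order of tumors: it spanned 39.5 to 4725 CPM over MYC spinal tumors in which *C5ar1* and *Cd14* were nearly level, and eRT 2, with the highest *C5ar1* and *Cd14*, was below MYC spinal 1 and 3 in the list. How much of each gene's difference came with the number of macrophages, monocytes or neutrophils was not tested in the sums. The levels within single lineages are given further on.

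Chemokine ligands were the list with the most members on the eRT side. Of 15 tested, 8 had an unadjusted p under 0.05, against 1.92% of all genes, with higher levels in eRT and none with lower levels. All gene lists were chosen with earlier results of these data known, so their counts are given as a description. In 5 of them every eRT lay above every MYC spinal tumor, against 2.62% of all genes, and the median log2 fold change was 2.77 against -0.07 over all genes. *Ccl2*, the main attractor of monocytes and ligand of CCR2, was at 168, 88.5 and 96.2 CPM in MYC spinal and 301, 1043 and 721 CPM in eRT. Its neighbours on chromosome 11 ran the same way. The 4 genes lie on the forward strand at chr11:82035571-82037453 (*Ccl2*), chr11:82045712-82047525 (*Ccl7*), chr11:82101845-82103400 (*Ccl12*) and chr11:82115185-82116799 (*Ccl8*) of GRCm38.

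*Ccl7* was at 105, 4.5 and 26.3 CPM in MYC spinal against 165, 693 and 1091 CPM in eRT. *Ccl12* was at 334, 6.7 and 143 CPM against 660, 441 and 1666 CPM, and *Ccl8* at 18.1, 1.2 and 13.9 CPM against 41.8, 203 and 69.2 CPM. In all 4 genes of this cluster MYC spinal 2, with the fewest macrophages, was the lowest tumor. The fifth ligand without overlap was *Cxcl3*, which draws neutrophils, with levels of 0, 1.2 and 2.0 CPM against 11.0, 620 and 3.2 CPM, where eRT 3 was barely above the MYC spinal tumors. *Cxcl2*, another such ligand, was the ligand with the highest level and overlapped, at 39.9, 370 and 838 CPM against 349, 16770 and 3820 CPM. *Ccl5*, which T and natural killer cells secrete, was the only tested ligand with a negative log2 fold change (-1.32 ± 1.46 SE), at 2602, 76.1 and 127 CPM against 98.0, 741 and 48.1 CPM, and was highest in the T cell-rich MYC spinal 1. eRT 2 carried the chemokine sum of 28796 CPM, against 1299 to 9995 CPM in the other 5 tumors.

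**Figure D3:**
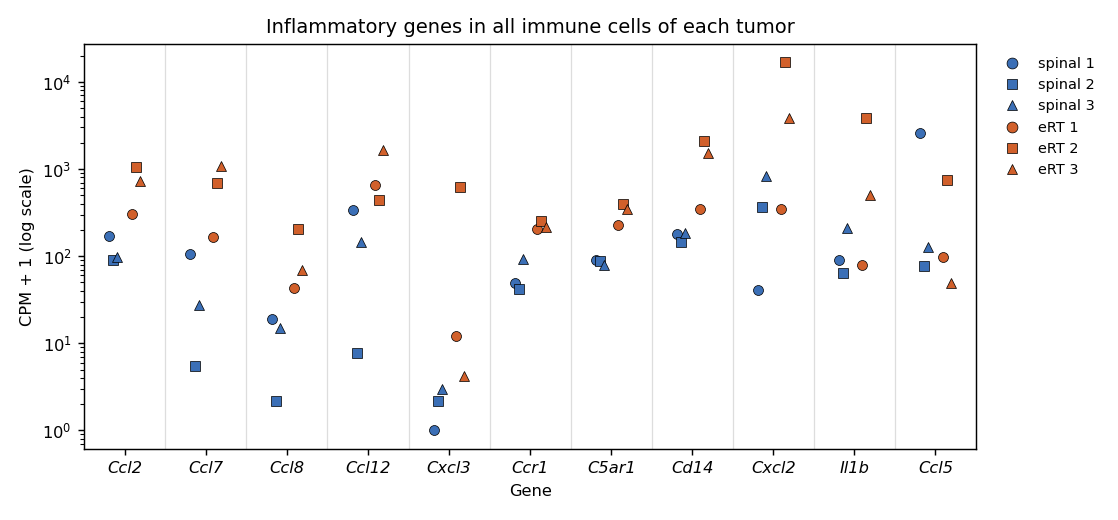
Points give the level of 11 genes (x axis) in the immune cells of each tumor (y axis, CPM + 1 on a log scale), with blue for MYC spinal and orange for eRT. The colors separate for the genes from *Ccl2* to *Cd14* and mix for *Cxcl2*, *Il1b* and *Ccl5*, and the *C5ar1* values of the MYC spinal tumors lie between 78.3 and 89.8 CPM.

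Among the receptors for these ligands, *Ccr1*, which binds CCL3, CCL5 and CCL7 among others, was at 47.9, 41.1 and 92.3 CPM in MYC spinal and 202, 255 and 216 CPM in eRT, without overlap. *Ccr2*, the receptor for *Ccl2* on monocytes, overlapped, at 163, 160 and 49.8 CPM against 92.8, 239 and 168 CPM. The median of the receptor list was 0.50.

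Inflammatory cytokine genes had 4 of 10 tested members with an unadjusted p under 0.05 (1.92% of all genes), all higher in eRT, and a median log2 fold change of 2.83. Only *Il10*, which encodes an anti-inflammatory cytokine, separated the subtypes (2.62% of all genes), at 1.0, 0 and 2.4 CPM in MYC spinal and 4.7, 19.1 and 14.3 CPM in eRT. *Il1b*, the secreted interleukin-1 of inflammasome activation, was at 89.1, 63.3 and 211 CPM against 78.1, 3809 and 508 CPM, and *Il1a* at 5.0, 0 and 0.6 CPM against 2.0, 163 and 111 CPM. In both, eRT 1 was within the range of the MYC spinal tumors and the high values were those of the 2 Sox2-cre tumors, so that Cre line and subtype cannot be told apart. *Tgfb1* overlapped, at 178, 61.7 and 102 CPM against 100, 188 and 261 CPM.

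The complement and resident macrophage list gave 4 of 10 tested members with an unadjusted p under 0.05 (1.92% of all genes), all higher in eRT, 3 without overlap (2.62% of all genes) and a median of 2.44. *Pf4*, a chemokine of platelets that some macrophages also make, was at 3.7, 2.6 and 52.4 CPM in MYC spinal and 117, 400 and 1985 CPM in eRT. *Folr2*, a folate receptor of resident macrophages, was at 1.0, 0 and 8.9 CPM against 31.8, 27.0 and 70.0 CPM, and *Cbr2*, a carbonyl reductase, at 0, 1.0 and 1.1 CPM against 4.5, 17.1 and 72.7 CPM. *Apoe*, the lipid carrier, was the most abundant member and overlapped widely, from 144 CPM in MYC spinal 2 and 13547 CPM in MYC spinal 1 to 4096 CPM in eRT 2 and 35574 CPM in eRT 3. Platelet markers were at most 17.1 CPM in any tumor.

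On the side of lower levels in eRT, neutrophil granule genes had 3 of 10 tested members with an unadjusted p under 0.05 (1.92% of all genes) and a median of -3.29. *Ltf*, lactoferrin of the secondary granules, was the 1 member without overlap (2.68% of all genes) and 1 of the 2 genes that DESeq2 called lower, at 14.1, 1211 and 88.2 CPM in MYC spinal and 3.7, 2.0 and 5.3 CPM in eRT. *Camp*, the cathelicidin precursor of the same granules, was at 23.5, 13073 and 643 CPM against 7.5, 0 and 31.0 CPM. *S100a8*, the calgranulin that mature neutrophils hold in bulk, was at 124, 66204 and 2831 CPM against 225, 5481 and 96.5 CPM. The neutrophil-rich eRT 2 thus held *S100a8* at 5481 CPM with *Camp* at 0, whereas MYC spinal 2 held 66204 and 13073 CPM.

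Another set of lower genes separated the subtypes in several lineages. *Rpl23a* and *Rpl9*, which encode proteins of the large ribosomal subunit, were both lower in every eRT. *Rpl23a* was at 1917, 1069 and 522 CPM against 99.8, 206 and 295 CPM, and *Rpl9* at 1628, 657 and 412 CPM against 159, 256 and 202 CPM. *Gstp1*, a glutathione transferase, was at 385, 87.9 and 94.9 CPM against 22.2, 26.3 and 40.9 CPM. *Pgk1*, phosphoglycerate kinase, was at 136, 41.5 and 78.1 CPM against 36.0, 23.2 and 16.6 CPM. All 4 have near-identical gene copies or pseudogenes in the mouse genome, which makes their counts uncertain, and the part of read assignment in the difference was not tested.

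The ribosomal genes were also lower outside the selection. In the unselected cells *Rpl23a* was at 1681, 1409 and 566 CPM in MYC spinal and 95.6, 548 and 484 CPM in eRT, and *Rpl9* at 1491, 921 and 385 CPM against 171, 377 and 264 CPM. Neither overlapped there, but the nearest values were 566 against 548 CPM for *Rpl23a* and 385 against 377 CPM for *Rpl9*. The unselected cells also held immune transcripts, with 36482 CPM of neutrophil markers in MYC spinal 2 and 1286 CPM of T cell markers in MYC spinal 1. Whether cells other than immune cells separated was therefore not tested. *Gstp1* did overlap in the unselected cells, at 854, 108 and 197 CPM against 89.0, 61.3 and 171 CPM. Of the other tested ribosomal proteins no list was drawn up, and these 2 genes were named by the rule for single genes.

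**Figure D4:**
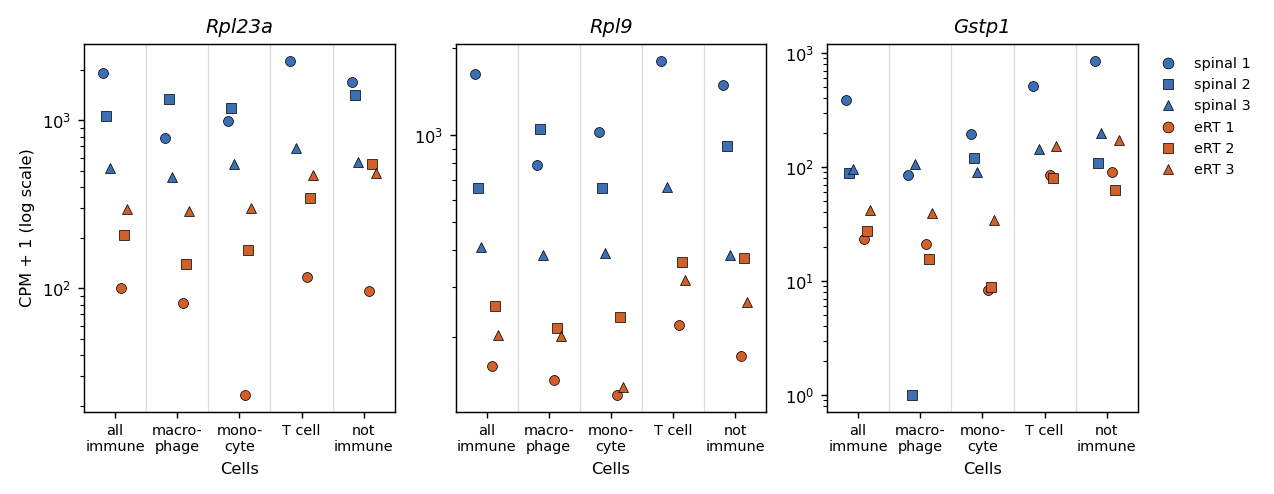
Points give *Rpl23a*, *Rpl9* and *Gstp1* (panels) in all immune cells, in macrophage-, monocyte- and T cell-marker cells and in the unselected cells (x axis) of each tumor (y axis, CPM + 1 on a log scale), leaving out tumors with under 10 cells of a class. The orange eRT points of *Rpl23a* and *Rpl9* lie under the blue MYC spinal points in all 5 sets of cells, and those of *Gstp1* overlap with them in the unselected cells.

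Most other lists had few or no members that separated the subtypes, against 2.62% of all genes above and 2.68% below. None of the 8 tested MHC class II genes did, although all 8 log2 fold changes were positive (median 1.89): *Cd74*, the invariant chain, was at 8690, 942 and 8143 CPM in MYC spinal and 6951, 9339 and 42259 CPM in eRT. None of the 9 MHC class I genes did either, with all 9 negative and a median of -0.35. Of 12 interferon-stimulated genes none separated and the median was -0.03, and *Isg15* was highest in MYC spinal 1 (626 CPM) and lowest in MYC spinal 2 (20.2 CPM), with eRT at 343, 422 and 71.0 CPM. The median was 0.87 for lysosomal proteases, of which *Ctsc* alone separated, 0.58 for lipid-associated macrophage genes, 0.79 for colony-stimulating factor receptors and 0.88 for immediate early and heat shock genes. It was -0.69 for cytotoxic effectors, -0.43 for T cell checkpoint genes, -0.46 for mitotic genes, -0.53 for inflammatory monocyte genes and -0.34 for osteoclast differentiation genes. Of 11 hypoxia and glycolysis genes only *Pgk1* separated, on the lower side, with a list median of 0.43. Of 8 immunosuppressive myeloid genes 2 had an unadjusted p under 0.05 (1.92% of all genes) and 1 separated. The latter was *Il10*, the same gene already counted in the inflammatory cytokine list. All 8 log2 fold changes were positive and the median was 1.70. *Arg1*, the member of highest log2 fold change, was at 69.7, 1.8 and 6.8 CPM against 709, 223 and 11.2 CPM and overlapped.

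The same test was run within single lineages, to set the mix of lineages aside. The fits rest on the same tumors and are not independent of each other. Macrophage-marker cells numbered 90, 10 and 1449 in MYC spinal 1, 2 and 3, and 1057, 165 and 2877 in eRT 1, 2 and 3. Of 8282 genes tested, edgeR called none (0%), 189 (2.28%) had an unadjusted p under 0.05 and DESeq2 called 1 (0.0121%). Every eRT lay above every MYC spinal tumor in 401 genes (4.84%) and below in 71 (0.857%), and without TMM factors in 321 and 118. Of the 10 cells of MYC spinal 2, 60.0% had at least 2 neutrophil markers, and without this tumor 667 and 563 of 10126 genes separated and again none was called. Leaving out MYC spinal 1, eRT 2 or eRT 3 instead gave 36, 52 and 5 called genes.

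Within macrophages several of the genes named above overlapped. *Ccl2* was at 826, 382 and 208 CPM in MYC spinal and 560, 2286 and 753 CPM in eRT, and *C5ar1* at 420, 573 and 213 CPM against 429, 818 and 367 CPM, so that both overlapped. *Cd14* overlapped too, at 812, 477 and 382 CPM against 600, 1781 and 1590 CPM. Of 13 chemokine ligands tested in macrophages none separated the subtypes, 5 had an unadjusted p under 0.05 (2.28% of all genes there) with higher levels in eRT, and the median log2 fold change was 1.56 against 0.10 over all genes tested there.

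*Folr2* did separate within macrophages, at 7.1, 0 and 17.4 CPM against 55.6, 200 and 73.5 CPM, with a log2 fold change of 3.06 ± 0.73 (SE) and an adjusted p of 0.547 (edgeR, Benjamini-Hochberg). *Sash1*, an adaptor gene, was at 10.6, 0 and 11.0 CPM against 37.1, 78.3 and 72.6 CPM. The macrophage sum of MYC spinal 2 held only 10480 UMIs, in which 1 UMI stood for 95.4 CPM. The 0 of MYC spinal 2 for *Folr2*, *Sash1* and *Hbb-bs* therefore cannot place this tumor below the eRT. *Sparc*, a matrix glycoprotein that microglia also express, had the smallest p of this fit, with a log2 fold change of -5.63 ± 1.08 (SE) and an adjusted p of 0.357 (edgeR). It was at 755, 95.4 and 23.0 CPM against 2.6, 8.7 and 7.4 CPM, the value of MYC spinal 2 resting on 1 UMI in 10 cells. Of the macrophage-marker cells, 51.1% in MYC spinal 1 and 37.8% in eRT 3 also had at least 2 microglia markers. In the other tumors 0% to 10.3% did, and the part of these cells in the *Sparc* values was not tested. *Sparc* was at 35.9 to 1736 CPM in the unselected cells of the 6 tumors, and the part of free RNA in the macrophage values was not tested. *H2-Q4*, an MHC class Ib gene with close paralogs, was at 258, 95.4 and 39.1 CPM against 20.8, 8.7 and 14.0 CPM. The value of MYC spinal 2 again stood for 1 UMI, so its place above the eRT is uncertain. *Hbb-bs*, a globin gene, also separated (10.6, 0 and 0 CPM against 80.2, 31.9 and 23.0 CPM), but was as high as 1321 CPM in the unselected cells of eRT 2.

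**Figure D5:**
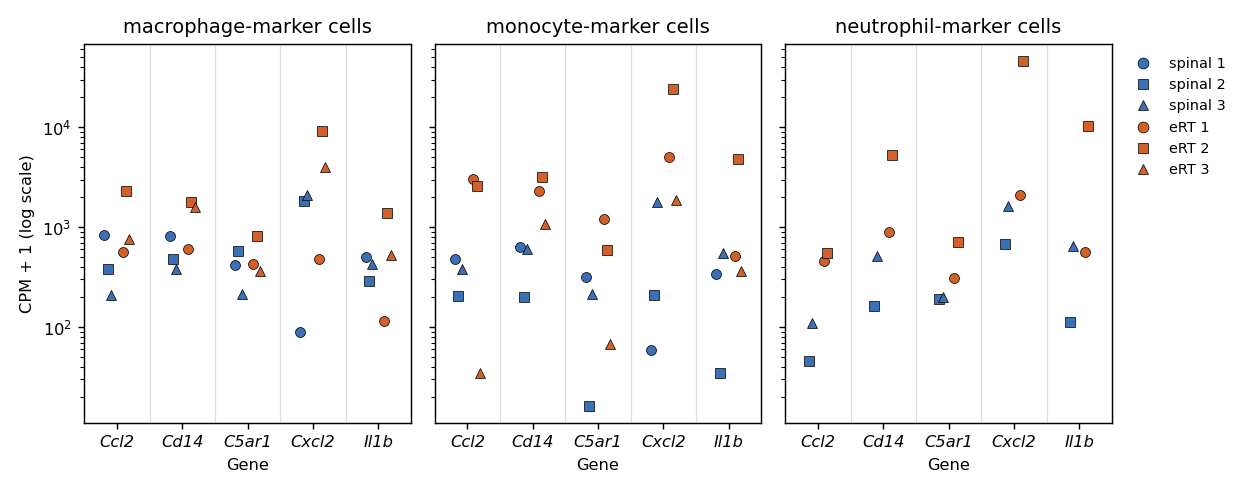
Points give 5 genes (x axis) in macrophage-, monocyte- and neutrophil-marker cells (panels) of each tumor with at least 10 such cells (y axis, CPM + 1 on a log scale), with blue for MYC spinal and orange for eRT. The colors overlap for *Ccl2* in macrophages and monocytes and are apart for *Cd14* in monocytes and neutrophils, with *Cd14* in monocytes at 199 to 640 CPM in MYC spinal and 1070 to 3185 CPM in eRT.

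Monocyte-marker cells numbered 40, 1018 and 185 in MYC spinal and 57, 333 and 22 in eRT. Of 3097 genes edgeR called none (0%), 150 (4.84%) had an unadjusted p under 0.05, and DESeq2 called 11 (0.355%). Every eRT lay above in 107 genes (3.45%) and below in 172 (5.55%), and without MYC spinal 1 edgeR called 3 genes. *Errfi1*, a feedback inhibitor of EGF receptor signalling, had the smallest p, at 21.6, 24.7 and 24.2 CPM in MYC spinal against 140, 129 and 167 CPM in eRT, a log2 fold change of 2.48 ± 0.40 (SE) with an adjusted p of 0.385 (edgeR, Benjamini-Hochberg). The lowest counts behind these values were 3 UMIs in MYC spinal 1 and 5 UMIs in the 22 cells of eRT 3. *Vegfa*, the angiogenic growth factor, was at 21.6, 14.4 and 12.1 CPM against 88.6, 139 and 66.8 CPM, the last of which stood for 2 UMIs in the 22 cells of eRT 3.

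*Cxcl3* was at 0, 0 and 14.5 CPM in monocytes of the MYC spinal tumors, and 731, 884 and 66.8 CPM in those of eRT, the last again standing for 2 UMIs. *Ltb4r1*, the receptor of leukotriene B4, was at 86.2, 47.3 and 48.4 CPM against 222, 217 and 201 CPM. *Ly6c2*, itself a marker used to name these cells, was lower, at 2235, 2873 and 557 CPM against 273, 426 and 301 CPM, and is given as a description. *Gstp1* was at 194, 118 and 89.6 CPM against 7.4, 7.8 and 33.4 CPM. Chemokine ligands had 8 of 12 tested members with an unadjusted p under 0.05 (4.84% of all genes there), all higher in eRT, 2 without overlap (3.45%), and a median of 2.71. *Ccl2* did not separate in monocytes, since eRT 3 held 1 UMI (33.4 CPM) beside 3058 and 2609 CPM in the other eRT. Of the monocytes of MYC spinal 2, 64.5% had at least 2 neutrophil markers, against 0% to 18.9% in the other tumors.

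Neutrophils could be compared in 2 tumors of each subtype, with 1769 and 201 cells in MYC spinal 2 and 3 and 21 and 312 cells in eRT 1 and 2. None of 4551 genes was called by edgeR (0%), 211 (4.64%) had an unadjusted p under 0.05 and DESeq2 called 17 (0.374%). With 2 tumors against 2, 605 genes (13.3%) lay above and 703 (15.4%) below without overlap, and 739 and 529 without TMM factors, which moved the median log2 fold change from -0.01 to 0.12. Without MYC spinal 3, eRT 1 or eRT 2 the calls numbered 67, 146 and 1, and the lone tumor of an arm is then assumed to vary like the others. The 21 cells of eRT 1 were mixed: 66.7% of them had at least 2 macrophage markers and 61.9% at least 2 osteoclast markers.

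Early granule and cycling genes were on the MYC spinal side of the neutrophil comparison. *Prtn3*, the proteinase 3 of primary granules, was at 178 and 111 CPM in MYC spinal 2 and 3 and had no UMI in either eRT. Set against 3 UMIs over both eRT sums, it was at least 30.5-fold lower in the eRT pool than in the MYC spinal pool. On the same footing *Fcnb* (ficolin B) was at least 27.6-fold, *Elane* (neutrophil elastase) at least 27.2-fold and *Itgb2l* at least 13.5-fold lower. These minima hold for the pools and were not computed for each tumor. *Prtn3* and *Elane* are also markers of the granulocyte-monocyte progenitor list. At least 2 progenitor markers were found in 7.86% of the neutrophils of MYC spinal 2 and 7.46% in MYC spinal 3, against 0% in eRT 1 and 2. The part of progenitors or their free RNA in these differences was not tested. Of the 557842 eRT UMIs, 470273 came from eRT 2 and 87569 from the 21 cells of the other eRT. MYC spinal 2 gave 1979896 UMIs and MYC spinal 3 gave 506406. *Cebpe*, the transcription factor of secondary granule synthesis, was at 94.4 and 122 CPM against 22.8 and 4.3 CPM. In the granule list 9 of 10 genes lay below without overlap against 15.4% of all genes tested there, with a median of -2.05. Its members *S100a8*, *S100a9*, *Retnlg* and *Lcn2* also helped to choose the neutrophils, so this count is given as a description. In the mitotic list 7 of 8 lay below without overlap, with a median of -2.12. *Camp* was at 28195 and 12016 CPM against 1016 and 0 CPM, and *Top2a*, which untangles DNA in dividing cells, at 148 and 88.9 CPM against 57.1 and 10.6 CPM.

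Of 7 inflammatory cytokine genes tested in neutrophils, 2 lay above in both eRT without overlap (against 13.3% of all genes) and none was called. *Arg1* was at 0.5 and 7.9 CPM in MYC spinal and 377 and 123 CPM in eRT. *Rsad2*, an antiviral interferon-induced gene, was at 12.6 and 31.6 CPM against 171 and 274 CPM, and 8 of 9 tested interferon-stimulated genes lay above without overlap against 13.3% of all genes, with a median of 2.30. The direction was not shared by all lineages. In macrophages all 12 tested members had negative log2 fold changes (median -0.96), and in T cells 7 of 8 did (median -0.98). In monocytes 9 of 11 were positive (median 0.73). Lysosomal proteases also lay above in neutrophils in 8 of 12 members. *Irg1*, which makes the metabolite itaconate in activated myeloid cells, was at 5.6 and 17.8 CPM against 45.7 and 623 CPM. *Il1b* overlapped, at 113 and 650 CPM in MYC spinal against 560 CPM in eRT 1 and 10390 CPM in eRT 2, and *Cxcl2* reached 45790 CPM in eRT 2 against 679, 1627 and 2078 CPM in the other 3. *Hbb-bs* was at 0 in both MYC spinal tumors and at 34.3 and 2811 CPM in eRT, and the erythroid list ran at 6806 CPM over all immune cells of eRT 2.

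T cells were compared in 5 tumors, with 778 and 75 cells in MYC spinal 1 and 3 and 32, 261 and 97 in eRT 1, 2 and 3. edgeR and DESeq2 each called none of 2676 genes (0%), and 62 (2.32%) had an unadjusted p under 0.05. Every eRT lay above in 124 genes (4.63%) and below in 154 (5.75%), and leaving out MYC spinal 3 or eRT 3 gave 1 and 2 calls. *Cenpf*, a kinetochore protein of dividing cells, was at 11.9 and 41.5 CPM in MYC spinal against 199, 77.7 and 88.9 CPM in eRT. *Cd8a*, the co-receptor of cytotoxic T cells, was at 379 and 255 CPM against 210, 68.0 and 109 CPM, a log2 fold change of -1.45 ± 0.44 (SE) with an adjusted p of 0.9996 (edgeR, Benjamini-Hochberg). *Gzmb*, the granzyme of cytotoxic cells, overlapped, at 403 and 308 CPM against 2076, 233 and 103 CPM, as did the exhaustion-associated receptor gene *Pdcd1*, at 236 and 29.6 CPM against 147, 126 and 68.4 CPM. *Rpl9* separated here as well, at 1812 and 664 CPM against 220, 365 and 315 CPM. Of the T cells of eRT 1, 34.4% had at least 2 osteoclast markers, and 12% of those of MYC spinal 3.

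Whether the subtype difference itself differed between macrophages and neutrophils was tested with an interaction term over the 4 tumors that had both. Among 5732 genes edgeR called none (0%), and 127 (2.22%) had an unadjusted p under 0.05. Without MYC spinal 2 or 3 the calls numbered 9 and 29. Over the 4 tumors no gene was therefore shown to differ between eRT and MYC spinal tumors in 1 of these lineages and not in the other.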

How the data were processed

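Single-cell suspensions (Accutase, red cell lysis, 7-AAD live sort) were run on 10x Genomics 3′ v2 chemistry. The deposited tables hold raw UMI counts per gene and cell, made by the authors with Cell Ranger 2.0.2 and mm10 (submitters' processing notes), 1 table per tumor, listing genes seen in at least 3 cells. Groups came from the mouse number in the labels, and 0 columns of per-sample values were left unused. Members and gene lists were chosen with earlier results of these data known. Cells are only numbered, so shared barcodes could not be counted, and 0 cells had identical counts over the 15 pairs of tables. The sex given by the study matched *Xist* and Y-linked genes in all 6 tumors. Labels name no batch. The study's sort gated out doublets, and none were removed computationally here.

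Immune UMIs per tumor summed to 2930128 to 16308256. Sums per tumor, over all immune cells or 1 lineage with at least 10 cells per tumor, were tested in R 4.3.3 with edgeR 4.0.16 (filterByExpr, TMM, glmQLFit, glmQLFTest, Benjamini-Hochberg at 0.05). The interaction fit had the tumor as a block. Shares were tested by exact permutation. The p-values measure the spread between these tumors, and limits for 0 cells or UMIs (3 counts) and intervals (95%, exact binomial or Poisson) cover counting error only. DESeq2 1.42.0, no TMM factors, every gene, Cre line or sex as covariate, other gates, thinning to 500 UMIs and leaving out each tumor were alternatives. Scripts were tested on simulated data with a gene spread fixed in advance, which does not show how sensitive the tests were on these tumors. Named genes were the 6 per direction and comparison that passed the threshold or, lacking these, had the smallest unadjusted p, always without overlap between subtypes and averaging 5 or more in log2 CPM, plus up to 4 examples per list (highest, lowest, most abundant). Lineage genes and members of lists singled out beside these, *Ccr2*, *Gzmb*, *Pdcd1*, *Mmp9*, *Ccl9* and *Spp1* among them, were chosen after their values were seen. Tumors of a subtype are numbered, and given throughout, in the order of the samples.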

Additional observations from a re-analysis of the deposited data

How the results depend on the processing

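The count of 0 genes called by edgeR in all immune cells stayed at 0 in every leave-one-out and every other alternative run except DESeq2, which called 14. DESeq2 called 1 gene in macrophages, 11 in monocytes and 17 in neutrophils. Testing every gene with at least 1 UMI gave 4, 126, 77 and 73 calls in macrophages, monocytes, neutrophils and T cells. The Cre line as a covariate gave 27 in macrophages, sex as a covariate 21 in macrophages and 62 in neutrophils, and leaving out the TMM factors 2 in the interaction. Leaving out 1 tumor gave 0 to 52 calls in macrophages, 0 to 3 in monocytes, 0 to 146 in neutrophils, 0 to 2 in T cells and 0 to 29 in the interaction, where the lone tumor of an arm is assumed to vary like the others. The cause of these shifts was not tested. The 60 entries of named genes, some genes being named in more than 1 fit, kept their sign under every alternative run. They were chosen for groups without overlap, so leaving out a tumor could hardly turn their sign, and this stability is no support. The threshold was passed by 32 of the entries under at least 1 run, runs with a lone tumor in an arm included.

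The differences in lineage shares (eRT minus MYC spinal, percentage points) changed sign with single tumors: over the leave-one-out values they ran from -8.52 to 4.57 for monocytes, -0.789 to 0.0466 for microglia, -13.7 to 10.5 for osteoclast-marker cells, -15.6 to 4.80 for neutrophils, -0.309 to 0.442 for dendritic cells, -0.295 to 0.00645 for plasmacytoid dendritic cells, -26.3 to 6.16 for T cells and -3.96 to 1.80 for natural killer cells. Macrophages stayed positive, from 18.2 to 57.3, as did the immune share of all cells, from 3.05 to 12.5, which was 19.4 with at least 3 immune markers and 16.3 after thinning. Naming lineages by summed UMIs gave 0.0278 for microglia. Dendritic cells were at -0.0223 after thinning and -0.104 with at least 3 markers, and plasmacytoid dendritic cells at 0.0443 with the cell filter at 500 genes and 10% mitochondrial UMIs.

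With 3 tumors per subtype no exact p under 0.1 was possible for a share. Classes of 10 to 22 cells, in MYC spinal 2 (macrophages), eRT 1 (neutrophils) and eRT 3 (monocytes), carry few UMIs, and single genes there rest on 1 or 2. Lineages rebuilt from 6 markers depend on depth, and transcripts of osteoclasts, neutrophils and red cells were counted in other cells of the same tumors. No paired analysis was possible because the replicate numbers only follow the order of the samples.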

Other observations

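Rare lineages were unevenly spread. Basophil or mast cell-marker cells were found in MYC spinal 2 alone, with 43 of 4326 immune cells (0.994%, exact binomial 95% interval 0.72 to 1.34), where *Prss34* and *Mcpt8*, serine proteases of basophils, were at 210 and 277 CPM. *Prss34* was at 0 in the other 5 tumors. Plasmacytoid dendritic cells were also most frequent there, at 0.624% of the immune cells against 0 to 0.253% elsewhere. Microglia-marker cells numbered 20 in MYC spinal 1 (1.67%) and 0 to 6 in each other tumor. The summed microglia list did not follow that count: it was at 325 CPM in MYC spinal 1 and 825 CPM in eRT 3, a shoulder tumor outside the central nervous system. At least 2 microglia markers were found in 7.94% of the immune cells of MYC spinal 1 and 36.5% of those of eRT 3. Cells with as many or more markers of another lineage were not counted as microglia, and in eRT 3 37.8% of the macrophage-marker cells had at least 2 microglia markers.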
